A study of Mus musculus with 8 samples.

Results

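The ephrins, Slits and netrins and their receptors made up 39 of the 24568 genes measured in alveolar epithelial cells sorted from embryonic mouse lungs. They were 5 ephrin-A ligands, 3 ephrin-B ligands, 9 EphA and 5 EphB receptors, 3 Slits, 4 Robo receptors, 4 netrins and 6 netrin receptors. The genes were taken by their symbols (Efna, Efnb, Epha, Ephb, Slit, Robo and Ntn with a number, Unc5a to Unc5d, Dcc and Neo1), with no filter on signal. The set itself was chosen with earlier results of these data known. Where several spots of the array carried a gene, the brightest on average stood for it. The 39 genes had 93 spots, and 17 of them had 1 spot.

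Cells were isolated by fluorescence-activated cell sorting as type I alveolar epithelial cells (AECI), the flat cells of gas exchange, or type II cells (AECII), the cuboidal cells that make surfactant. Signalling by Fgfr2b, an epithelial receptor that binds fibroblast growth factors, was inhibited in vivo between embryonic days E16.5 and E18.5 in the lungs called Mutant, and lungs called WT served as controls. The 4 groups, Mutant AECI, WT AECI, Mutant AECII and WT AECII, held 2 arrays each, which the design calls biological replicates. How the receptor was inhibited, the alleles and strain, the sort markers, the sex of the embryos and any pooling are not stated in what was read for this work. Values are log2 signals of single-colour arrays, so that a difference of 1 is a 2-fold change. No probe's level is set against that of another probe. In sorted bulk RNA, fewer cells that express a gene and less RNA per cell cannot be told apart.

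Ephrins are membrane-bound ligands of the Eph receptors, which are receptor tyrosine kinases, and the pair signals at cell contacts into both cells, sorting cells from each other and setting boundaries. Slits are secreted proteins that bind Robo receptors and mostly repel migrating cells and axons. Netrins are secreted relatives of the laminins, which act through Dcc, neogenin and the Unc5 receptors. All 3 systems were first studied in the growing nervous system, and each also shapes branching epithelia and blood vessels.

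The labelled cell types were checked against marker lists. The summed signal of 8 AECI markers (Pdpn, Ager, Aqp5, Hopx, Cav1, Rtkn2, Col4a3, Akap5) lay between 16.93 and 17.14 in the AECI arrays and between 14.43 and 15.40 in the AECII arrays. That of 8 AECII markers (Sftpb, Sftpa1, Abca3, Lamp3, Etv5, Lyz2, Slc34a2, Cebpa) lay between 14.50 and 15.63 in the AECI arrays and between 17.21 and 17.36 in the AECII arrays. Markers of airway cells moved with the populations. The sum of 5 ciliated cell markers lay between 9.64 and 10.70 in the AECI arrays and between 12.95 and 13.58 in the AECII arrays, and that of 4 club cell markers lay between 10.45 and 12.74 in the AECI arrays and between 16.38 and 16.61 in the AECII arrays. All 8 AECI markers passed as higher in AECI in WT and 7 of 8 in Mutant, and all 8 AECII markers passed as lower in both genotypes. All 5 ciliated markers and 2 of 4 club markers passed the test as lower in AECI in both genotypes. Of 8 endothelial markers only Kdr passed, at 3.14 and 4.69 in Mutant AECI and 3.99 and 4.28 in WT AECI, against 7.72 and 7.37 in Mutant AECII and 7.43 and 7.81 in WT AECII. No marker of the mesenchymal, leukocyte, neural or basal lists passed in either genotype, though Csf1r, Itgam, Elavl4 and Trp63 gave bright spots in all 8 arrays. Over both genotypes, 1 neural and neuroendocrine marker, Calca, passed as lower in AECI (-2.12, adjusted p = 0.0225). The part of airway and endothelial cells in the results on the 39 genes was not tested. Xist, which silences the X chromosome in female cells, had signals between 3.50 and 5.14 in the 4 Mutant arrays and between 12.44 and 13.17 in the 4 WT arrays, and the Y-linked Uty had the reverse, with 6.71 to 7.47 in Mutant and 2.72 to 3.24 in WT. The Y-linked Eif2s3y lay between 10.47 and 11.05 in Mutant and between 3.67 and 5.86 in WT, but the spot of the Y-linked Kdm5d did not split, with 12.17 to 12.75 in Mutant and 11.95 to 12.62 in WT. By Xist, Uty and Eif2s3y, the Mutant arrays had a male pattern and the WT arrays a female one. Genotype and sex therefore cannot be told apart in these arrays.

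**Figure D1:**
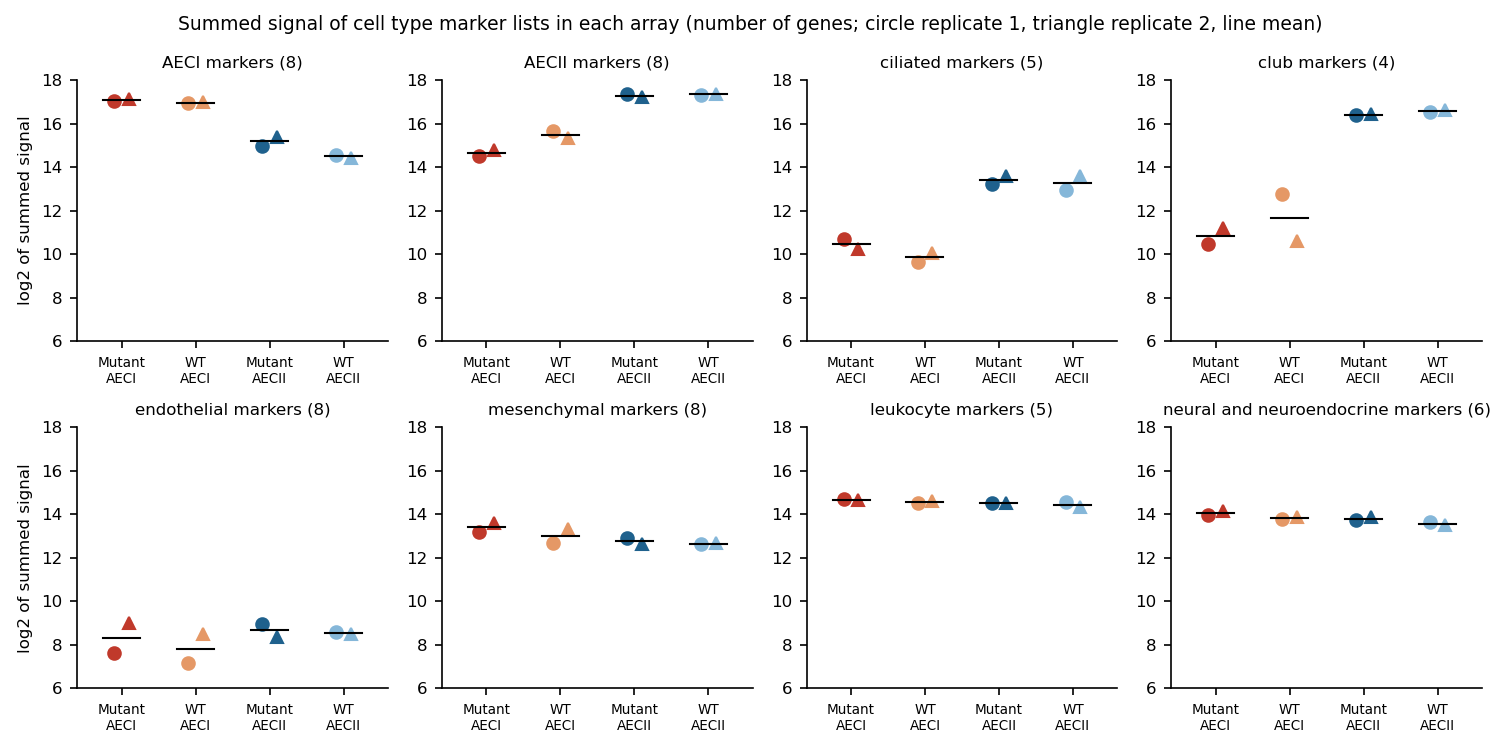
Log2 of the summed signal of 8 cell type marker lists (y axis) in each array of the 4 groups (x axis), with a circle for replicate 1, a triangle for replicate 2 and a line for the mean of the 2. AECI markers were higher in the AECI arrays, AECII, ciliated and club markers were higher in the AECII arrays, and the leukocyte and neural lists lay within about 1 log2 unit in all 8 arrays. The leukocyte sum rested mainly on the bright spots of Itgam and Csf1r, and the neural sum on that of Elavl4. Their evenness does not show that the other markers of these lists were even.

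The comparison of the populations asked which guidance genes type I and type II cells express differently. The ligand genes Slit3, Ntn3 and Ntn5 and the receptor gene Epha7 were lower in all 4 AECI arrays than in any AECII array, and the ligand gene Efna1 and the receptor gene Epha4 were higher in all 4. The summed ciliated and club cell markers were also lower in all 4 AECI arrays, and the part of such cells in these differences was not tested. By the used spots and averaged over the genotypes, Epha7 was 7.09-fold and Ntn5 6.86-fold lower in AECI, while Epha4 was 3.22-fold and Efna1 2.62-fold higher. The spots of Epha7 gave log2 differences of -3.06 to -1.36, and the second spot of Ntn5 gave -1.92. Slit3 and Ntn3 reached down to 2.87 and 2.99 in AECI, near the lowest value of an array (2.27), so no fold is given for them and their log2 differences depend on the low end of the scale. A model with 4 group means was fitted to all 8 arrays for every gene in limma, and p-values were adjusted over the 24568 genes with a threshold of 0.05. In Mutant lungs 8 of the 39 genes passed, 4 higher and 4 lower in AECI, against 7.8% of all genes tested (2.93% higher and 4.87% lower). In WT lungs 8 of the 39 passed, 3 higher and 5 lower in AECI, against 7.01% of all genes (2.87% higher and 4.14% lower). The 2 comparisons share no array, but both use the spread of each gene estimated from all 8 arrays, so their calls are not independent. With the same sign, 6 genes passed in both, 75% of either list of 8. Of all genes, 1310 passed in both, 68.3% of the calls in Mutant and 76.1% of those in WT. The 2 arrays of either side did not overlap for 24 of the 39 genes in Mutant (52.2% of all genes) and for 24 in WT (48.9%). The median difference of the 39 genes was 0.21 in Mutant and 0.53 in WT, beside 0.02 and 0.00 for all genes. Of the 24 genes whose mean signal lay above the median gene, 6 passed in each genotype, beside 12.6% of such genes in Mutant and 11.3% in WT. The counts rested on few arrays. Leaving out an array leaves its group with 1, which is then assumed to vary like the other groups. In Mutant 3 genes passed when Mutant AECII replicate 1 was left out (3.23% of all genes), 2 when replicate 2 of that group was (Epha7 and Ntn5, with 2.55% of all genes), and 5 when Mutant AECI replicate 1 was (3.54%). In WT 3 genes passed when WT AECI replicate 1 was left out (4.79% of all genes) and 4 when its replicate 2 was (4.32%), while 1 (Epha7) passed without replicate 2 of the WT AECII arrays (2.15%). When WT AECII replicate 1 was left out, 0 passed by limma, beside 2.64% of all genes, and 9 of the 39 had an unadjusted p under 0.05, beside 16.6% of all genes.

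Averaged over both genotypes, with 4 arrays on either side, 12 of the 39 genes passed, beside 14.8% of all genes. This average was added after the values were seen and uses the same arrays, so it is no independent support. The 7 higher in AECI, beside 5.8% of all genes, were Epha4, Efna3, Efna1, Efnb1, Ntn4, Efna5 and Epha2. The 5 lower in AECI, beside 9.01% of all genes, were Slit3, Ntn3, Epha7, Ntn5 and Unc5b. The 4 AECI arrays did not overlap the 4 AECII arrays for 16 of the 39 genes, 10 higher and 6 lower, beside 22% of all genes (9.6% higher and 12.4% lower). Most of the 39 genes were ephrins or Eph receptors (5 ephrin-A, 3 ephrin-B, 9 EphA and 5 EphB genes). They gave 6 of the 7 genes that were higher in AECI and 1 of the 5 that were lower, a split that was not tested.

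**Figure D2:**
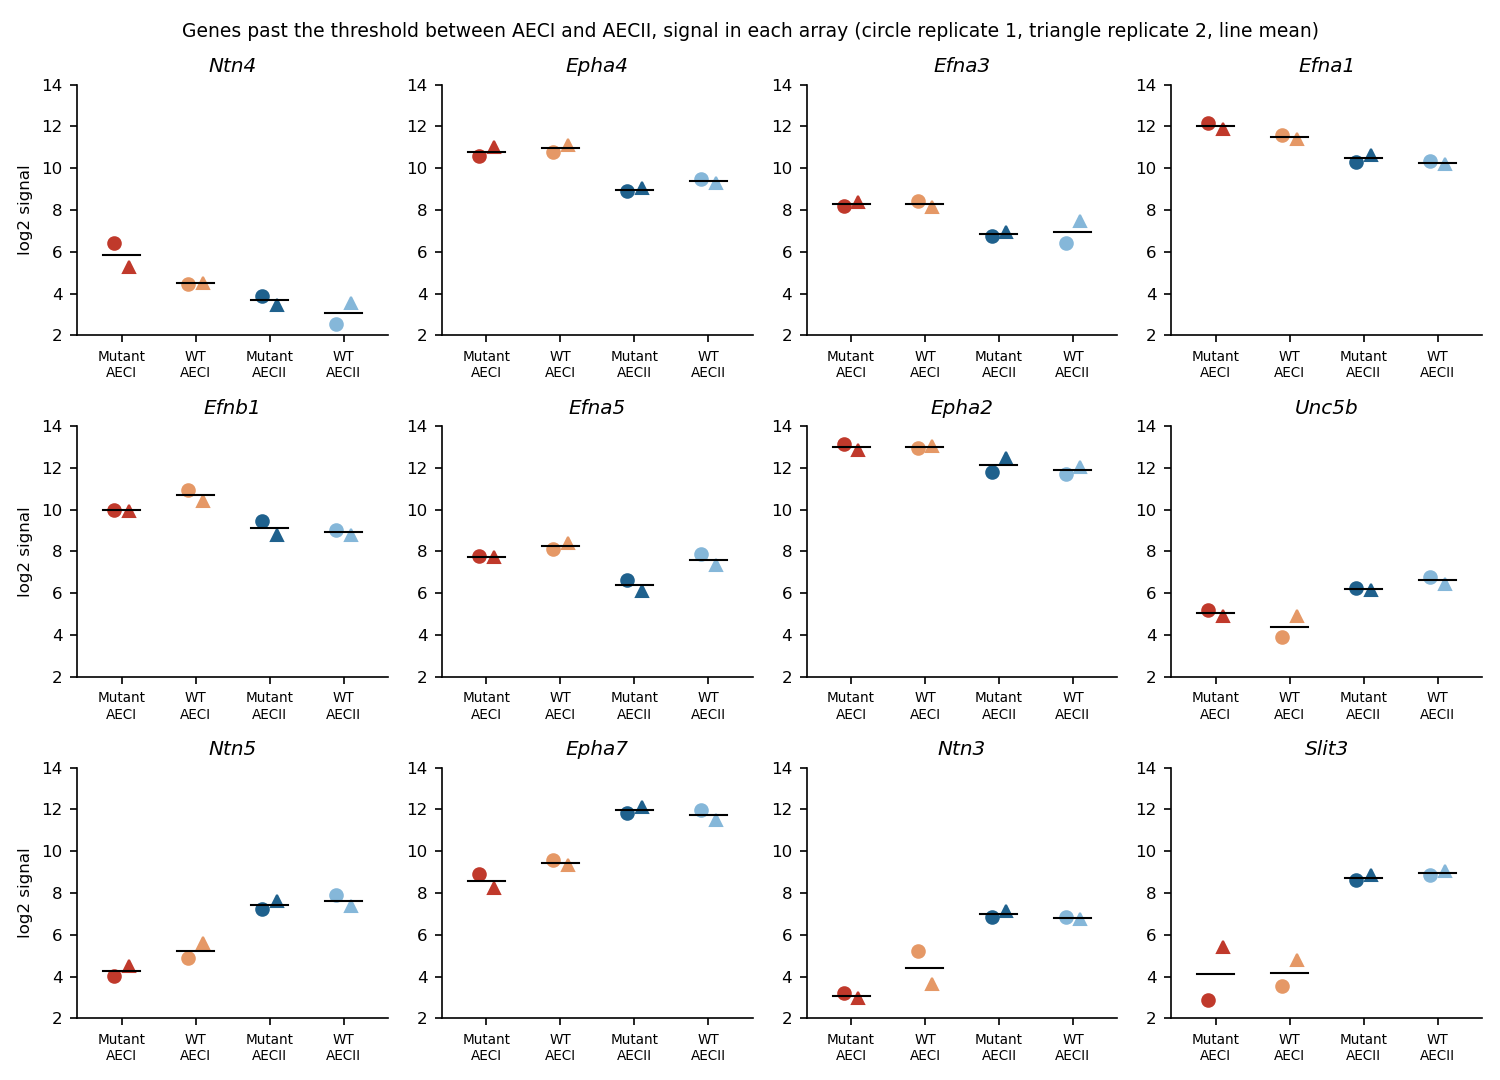
Log2 signal (y axis, the same scale in each panel) of the 12 genes past the threshold between AECI and AECII over both genotypes, in each array of the 4 groups (x axis), with a circle for replicate 1, a triangle for replicate 2 and a line for the mean of the 2. The AECI and AECII arrays overlapped only for Efna5, and the widest gaps between the populations were those of Slit3, Ntn3, Epha7 and Ntn5, which were lower in AECI.

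Ephrin-A ligands are tethered to the membrane by a lipid anchor and bind mainly EphA receptors. Efna1, first found as a gene that endothelial cells induce in inflammation, had signals of 12.16 and 11.86 in Mutant AECI and 11.57 and 11.40 in WT AECI, against 10.30 and 10.62 in Mutant AECII and 10.32 and 10.20 in WT AECII. All AECI arrays lay above all AECII arrays, and the mean difference was 1.39 ± 0.19 on the log2 scale (SE; limma, adjusted p = 0.00345). It passed in each genotype, with 1.55 ± 0.26 in Mutant (adjusted p = 0.0169) and 1.22 ± 0.26 in WT (adjusted p = 0.041). Efna3, a ligand of the same class that is induced by low oxygen in several cell types, had 8.17 and 8.37 in Mutant AECI and 8.43 and 8.14 in WT AECI, against 6.73 and 6.93 in Mutant AECII and 6.40 and 7.46 in WT AECII. Its arrays did not overlap between the populations either, and the mean difference was 1.40 ± 0.27 (adjusted p = 0.0156), while neither genotype alone passed (adjusted p = 0.0752 in Mutant and 0.0936 in WT). The call of Efna1 in WT was lost on leaving out any 1 of the 8 arrays (adjusted p of up to 0.190), and that in Mutant without Mutant AECI replicate 1 or either Mutant AECII array (up to 0.103). The call of Efna3 over both genotypes was lost without Mutant AECII replicate 1 (adjusted p = 0.0600) or Mutant AECI replicate 2 (adjusted p = 0.0503).

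Efna5, the ligand of the topographic maps of the visual system, had 7.77 and 7.72 in Mutant AECI and 8.09 and 8.40 in WT AECI, against 6.63 and 6.12 in Mutant AECII and 7.86 and 7.35 in WT AECII. The difference was 1.37 ± 0.31 in Mutant (adjusted p = 0.0458) and 0.64 ± 0.31 in WT (adjusted p = 0.326), while the difference between the genotypes, 0.73 ± 0.44, did not pass (adjusted p = 0.999). Both genotypes together gave 1.01 ± 0.22 (adjusted p = 0.0255). The Mutant AECII arrays were the lowest of the 8, and 1 WT AECII array lay among the AECI arrays. The call of Efna5 in Mutant was lost on leaving out any 1 of the 8 arrays (adjusted p of up to 0.230). The call over both genotypes was lost, at adjusted p of up to 0.0878, without either Mutant AECI array, WT AECI replicate 2, WT AECII replicate 2 or Mutant AECII replicate 2. Efna4 differed by -0.49 ± 0.33 (95% interval -1.27 to 0.29) and Efna2 by 0.43 ± 0.30 (95% interval -0.29 to 1.15), and neither passed.

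Efna1, Efna3 and Efna4 are neighbours on chromosome 3, with 0 protein-coding genes between them in RefSeq, and all lie on the minus strand. Their promoters, and those of the EphA receptors with the clearest opposite differences, Epha4 and Epha7, are shown because the first 3 genes are neighbours of which 2 passed, and the last 2 are receptors of one class that passed in opposite directions. The difference between Efna4 and its neighbours was not tested. Each run covers 250 bases before and 50 bases after the outermost annotated start of the gene in RefSeq (GRCm38.p6), 5′ to 3′ on the strand of the gene. Capitals mark matches, on either strand, to the letters GGAATG (TEAD), TGANTCA (AP-1), CCGGAAG (ETS), CTCAAG (NKX2-1), TGTTTAC (forkhead) or GGGCGG (GC box).
Efna1 (chr3:89280902-89281201, minus strand): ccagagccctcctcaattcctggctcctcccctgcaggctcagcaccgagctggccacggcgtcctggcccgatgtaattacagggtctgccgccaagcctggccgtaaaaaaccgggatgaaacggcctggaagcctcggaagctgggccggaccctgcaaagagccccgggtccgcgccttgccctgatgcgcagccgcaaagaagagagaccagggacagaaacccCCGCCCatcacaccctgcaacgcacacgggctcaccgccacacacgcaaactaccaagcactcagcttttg
Efna3 (chr3:89322890-89323189, minus strand): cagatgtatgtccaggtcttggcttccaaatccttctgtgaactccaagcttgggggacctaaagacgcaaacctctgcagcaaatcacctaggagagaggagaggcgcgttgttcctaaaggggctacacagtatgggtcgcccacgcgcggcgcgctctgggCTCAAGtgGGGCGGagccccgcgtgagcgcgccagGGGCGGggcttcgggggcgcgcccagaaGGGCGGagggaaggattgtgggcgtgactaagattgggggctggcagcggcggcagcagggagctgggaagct
Efna4 (chr3:89337979-89338278, minus strand): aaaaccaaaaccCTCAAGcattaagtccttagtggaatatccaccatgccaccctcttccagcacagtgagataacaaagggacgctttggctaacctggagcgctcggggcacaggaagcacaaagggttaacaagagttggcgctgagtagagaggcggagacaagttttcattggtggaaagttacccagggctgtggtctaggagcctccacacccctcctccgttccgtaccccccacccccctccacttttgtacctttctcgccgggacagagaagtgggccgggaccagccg
Epha4 (chr1:77515039-77515338, minus strand): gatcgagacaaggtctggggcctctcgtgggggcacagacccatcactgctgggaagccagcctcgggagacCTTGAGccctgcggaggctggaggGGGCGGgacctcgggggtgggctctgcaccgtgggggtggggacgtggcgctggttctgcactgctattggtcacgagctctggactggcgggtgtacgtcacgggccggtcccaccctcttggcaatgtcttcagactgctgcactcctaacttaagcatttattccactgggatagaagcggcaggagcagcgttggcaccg
Epha7 (chr4:28812881-28813180, plus strand): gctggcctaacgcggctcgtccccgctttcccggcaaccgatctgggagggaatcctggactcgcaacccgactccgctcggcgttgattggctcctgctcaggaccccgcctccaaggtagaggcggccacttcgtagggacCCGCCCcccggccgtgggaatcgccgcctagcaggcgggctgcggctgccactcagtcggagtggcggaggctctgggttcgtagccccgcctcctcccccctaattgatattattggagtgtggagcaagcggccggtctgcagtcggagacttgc

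The GC box was matched once in the windows of Efna1, Epha4 and Epha7, 3 times in that of Efna3 and 0 times in that of Efna4. It was present in 24 of the 34 genes that had a window in the table, and in 35.9% of the windows of 27025 genes. The window of Efna4 held 11 CpG dinucleotides, against 20 for Efna1 and 22 for Efna3, beside a median of 7 over all windows. NKX2-1 letters were matched in Efna3, Efna4 and Epha4 (5 of the 34 genes and 16.2% of all windows). TEAD letters were matched in 5 of the 34 genes (14.7% of all windows), among them Epha2 and Ntn3, and ETS letters in 1 (9.14%). AP-1 and forkhead letters were matched in 0 of the 34, beside 7.92% and 3.52% of all windows. A match is a description of the letters only.

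Ephrin-B ligands span the membrane and can signal backwards into the cell that carries them. Efnb1, encoded on chromosome X, had 9.99 and 9.93 in Mutant AECI and 10.92 and 10.43 in WT AECI, against 9.45 and 8.79 in Mutant AECII and 9.03 and 8.79 in WT AECII. The AECI arrays lay above the AECII arrays in each genotype, and the mean difference was 1.30 ± 0.23 (adjusted p = 0.0109). In Mutant it was 0.84 ± 0.33 and did not pass (adjusted p = 0.195), and in WT it was 1.76 ± 0.33 and passed (adjusted p = 0.023), but the difference between the genotypes, -0.92 ± 0.46, did not pass (adjusted p = 0.999). The call of Efnb1 in WT was lost without WT AECI replicate 1 or either WT AECII array (adjusted p of up to 0.136). Efnb2, known from arterial endothelium and lymphatics, was even over the arrays, with 10.96 and 11.43 in Mutant AECI and 11.13 and 11.30 in WT AECI, against 11.39 and 11.45 in Mutant AECII and 11.24 and 11.04 in WT AECII. Its mean difference of -0.08 had a 95% interval of -0.53 to 0.38, so a 2-fold change lay outside it. Efnb3 differed by 0.19 ± 0.32 and did not pass.

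EphA receptors bind mainly the ephrin-A ligands, and Epha4 also binds ephrin-B. The receptor with the smallest p was Epha7, which was lower in AECI. It had 8.92 and 8.25 in Mutant AECI and 9.55 and 9.32 in WT AECI, against 11.80 and 12.12 in Mutant AECII and 11.96 and 11.47 in WT AECII. All 4 AECI arrays lay below all 4 AECII arrays. The mean difference was -2.83 ± 0.24 (adjusted p = 0.000575), with -3.37 ± 0.34 in Mutant (adjusted p = 0.00267) and -2.28 ± 0.34 in WT (adjusted p = 0.0105). All 4 spots of Epha7 were lower in AECI, with -3.06 to -1.36 as the mean of both genotypes. The call in WT was lost without WT AECII replicate 1 or WT AECI replicate 2, at adjusted p of up to 0.0714, and the adjusted p in Mutant was at most 0.0290 on leaving out 1 array, a test in which a group left with 1 array takes its spread from the others.

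Epha4 moved the other way, with 10.58 and 10.99 in Mutant AECI and 10.78 and 11.11 in WT AECI, against 8.91 and 9.04 in Mutant AECII and 9.46 and 9.30 in WT AECII. All AECI arrays lay above all AECII arrays, and the mean difference was 1.69 ± 0.20 (adjusted p = 0.00182), with 1.81 ± 0.28 in Mutant (adjusted p = 0.0109) and 1.56 ± 0.28 in WT (adjusted p = 0.0199). In Mutant the call of Epha4 was lost without either Mutant AECII array or Mutant AECI replicate 2 (adjusted p of up to 0.0727), and in WT without either WT AECII array or WT AECI replicate 2 (up to 0.121). Epha2, an epithelial receptor found at cell junctions, had 13.16 and 12.87 in Mutant AECI and 12.95 and 13.03 in WT AECI, against 11.78 and 12.45 in Mutant AECII and 11.71 and 12.05 in WT AECII. Its arrays did not overlap, but the difference was small, 1.01 ± 0.22 over both genotypes (adjusted p = 0.027), with adjusted p = 0.159 in Mutant and 0.0973 in WT. The call was lost, at adjusted p of up to 0.0904, on leaving out any array but Mutant AECII replicate 2. Both Epha4 and Epha2 had 1 spot.

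The other 6 EphA receptors did not pass in any comparison of the populations. Epha10, which lacks kinase activity, was nearest, with 0.83 ± 0.26 (adjusted p = 0.086), but its second spot had the opposite sign (-0.69). Epha1 differed by 0.65, Epha5 by 0.41, Epha6 by 0.33, Epha3 by 0.17 and Epha8 by -0.17. Epha8 had signals of 2.38 to 2.73, close to the lowest value of an array, 2.27.

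EphB receptors bind mainly the ephrin-B ligands, and 0 of the 5 passed in either genotype or in the average. Ephb6, which lacks kinase activity, had 8.49 and 8.79 in Mutant AECI and 8.62 and 8.50 in WT AECI, against 8.29 and 7.93 in Mutant AECII and 7.79 and 8.19 in WT AECII. The arrays of the populations did not overlap, at a mean difference of 0.55 ± 0.20 (adjusted p = 0.128). Ephb2 did not overlap either, with 0.70 ± 0.33 (adjusted p = 0.225), and its WT AECI replicate 1, at 10.46, stood 1.43 above WT AECI replicate 2. Ephb4, known from veins, differed by -0.23 (95% interval -0.65 to 0.18), and Ephb1 by 0.56 (95% interval -0.06 to 1.17). Ephb3 had signals between 15.75 and 15.92 in all arrays, just under the highest value of an array, 15.99, where the scale ends.

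**Figure D3:**
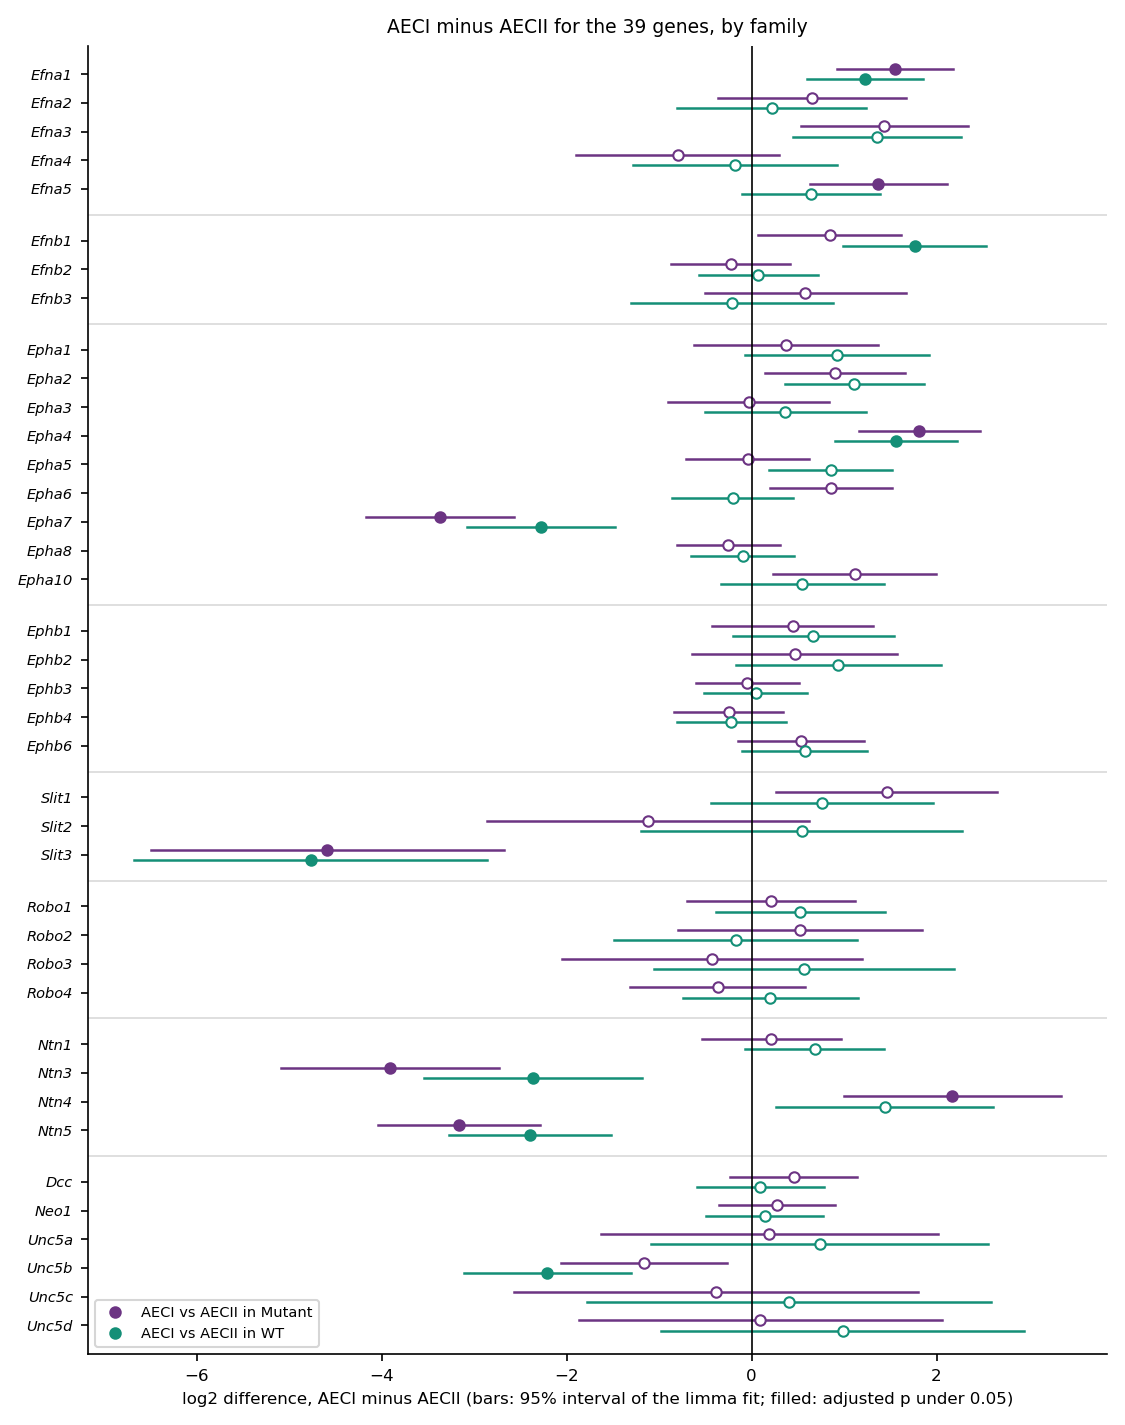
Log2 difference of AECI minus AECII (x axis) for each of the 39 genes (y axis, by family) in Mutant lungs and in WT lungs, with 95% intervals of the limma fit and filled symbols for adjusted p under 0.05. Epha7, Slit3, Ntn3 and Ntn5 lay far to the left in both genotypes, while most ephrin and Eph genes lay to the right of 0 by less than 2 log2 units.

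Slits were represented by Slit1, Slit2 and Slit3, and 1 of the 3 passed. Slit3, which is known from the diaphragm and from vessels, had 2.87 and 5.41 in Mutant AECI and 3.55 and 4.81 in WT AECI, against 8.60 and 8.85 in Mutant AECII and 8.85 and 9.05 in WT AECII. The AECII arrays were even, all AECI arrays lay far below them, and the mean difference, -4.68 ± 0.57, was the largest of the 39 genes in size on this scale (adjusted p = 0.00221). It was -4.59 ± 0.80 in Mutant (adjusted p = 0.0187) and -4.77 ± 0.80 in WT (adjusted p = 0.017). Within AECI the 2 arrays of a group were apart, by 2.55 in Mutant and 1.27 in WT. Without Mutant AECI replicate 1 the difference in Mutant was -3.31 (adjusted p = 0.0384). The call in Mutant was lost without either Mutant AECII array (adjusted p of up to 0.111), and the call in WT without WT AECI replicate 1 or either WT AECII array (up to 0.102). Col1a1, a fibroblast collagen, had 6.38 and 10.26 in Mutant AECI and 4.94 and 8.57 in WT AECI, against 9.29 and 7.05 in Mutant AECII and 9.28 and 6.15 in WT AECII. The summed ciliated and club cell markers, like Slit3, were lower in every AECI array than in any AECII array. The part of fibroblasts or of airway cells in the values of Slit3 was not tested. Slit3 had 1 spot.

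Slit1 differed by 1.11 ± 0.36 (adjusted p = 0.0896), with a highest signal of 5.20 in WT AECI replicate 2. Slit2, which acts with Robo1 and Robo2 in kidney and lung development, differed by -0.29 ± 0.52, and its replicates were more than 2-fold apart in all 4 groups. Of the Robo receptors 0 of 4 passed. Robo1 had signals between 7.11 and 8.34 and differed by 0.37 (95% interval -0.28 to 1.01). Robo4, the receptor of endothelial cells, differed by -0.08 (95% interval -0.75 to 0.59), Robo3 by 0.07 and Robo2 by 0.18. The 8 spots of Robo2 had means between 2.74 and 3.42, near the low end of the arrays.

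Of the 4 netrins 3 passed, and they did not move one way. Ntn3, which is known from sensory and motor neurons, had 3.19 and 2.99 in Mutant AECI and 5.22 and 3.63 in WT AECI, against 6.84 and 7.16 in Mutant AECII and 6.85 and 6.73 in WT AECII. All AECI arrays lay below all AECII arrays, at a mean difference of -3.14 ± 0.35 (adjusted p = 0.00162). It was -3.91 ± 0.50 in Mutant (adjusted p = 0.00584) and -2.36 ± 0.50 in WT (adjusted p = 0.0369), and both of its spots were lower in AECI, with -3.14 and -2.53. The call in WT was lost on leaving out any array but WT AECI replicate 1 (adjusted p of up to 0.158) and with a replicate block (0.0519), and without WT AECI replicate 2 the difference in WT was -1.57. The call in Mutant was lost without Mutant AECII replicate 2 (adjusted p = 0.0511). Ntn5, a further netrin, had 4.04 and 4.50 in Mutant AECI and 4.90 and 5.59 in WT AECI, against 7.23 and 7.63 in Mutant AECII and 7.90 and 7.37 in WT AECII. It was lower in all AECI arrays than in any AECII array, with a difference of -2.78 ± 0.26 on the log2 scale (adjusted p = 0.000822), with -3.16 ± 0.37 in Mutant (adjusted p = 0.00445) and -2.39 ± 0.37 in WT (adjusted p = 0.012). Its second spot gave -1.92. The call of Ntn5 in WT was lost without WT AECI replicate 1 or either WT AECII array (adjusted p of up to 0.0783).

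Ntn4, which binds laminins and is built into basement membranes, was higher in AECI. Its signals were 6.44 and 5.25 in Mutant AECI and 4.45 and 4.52 in WT AECI, against 3.89 and 3.46 in Mutant AECII and 2.54 and 3.55 in WT AECII. Ntn4 had 1 spot, and its AECII signals reached near the lowest value of an array (2.27), so its log2 differences depend on the low end of the scale. The populations did not overlap, and the difference was 1.80 ± 0.35 (adjusted p = 0.0156), with 2.17 ± 0.49 in Mutant (adjusted p = 0.0449) and 1.44 ± 0.49 in WT (adjusted p = 0.158). The difference between the genotypes, 0.73 ± 0.70, did not pass (adjusted p = 0.999). The call in Mutant was lost on leaving out any array but Mutant AECI replicate 2 (adjusted p of up to 0.216) and with a replicate block (0.0774). The average lost its call without Mutant AECII replicate 2 (adjusted p = 0.0614). Ntn1, the netrin of the spinal cord floor plate, had 11.24 and 11.62 in Mutant AECI and 11.83 and 11.73 in WT AECI, against 10.99 and 11.44 in Mutant AECII and 11.37 and 10.83 in WT AECII. Its arrays overlapped, and its difference of 0.45 ± 0.22 did not pass (adjusted p = 0.254).

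Of the 6 netrin receptors, Unc5b, a receptor of endothelial tip cells, passed. It had 5.18 and 4.92 in Mutant AECI and 3.89 and 4.91 in WT AECI, against 6.26 and 6.16 in Mutant AECII and 6.80 and 6.42 in WT AECII. The AECI arrays lay below the AECII arrays, and the difference was -1.69 ± 0.27 (adjusted p = 0.00701), with -1.16 ± 0.38 in Mutant, which did not pass (adjusted p = 0.132), and -2.21 ± 0.38 in WT (adjusted p = 0.0179). The difference between the genotypes, 1.05 ± 0.54, did not pass (adjusted p = 0.999). The difference rested on 1 of its 2 spots. The other gave -0.01 over both genotypes, with -0.27 in Mutant and 0.24, the opposite sign, in WT. With the mean of both spots the adjusted p over both genotypes was 0.0847. The call in WT was lost with the mean of both spots, and without WT AECI replicate 1 or either WT AECII array. The endothelial marker Kdr was also higher in the AECII arrays, while the other 7 endothelial markers did not pass, and the part of such cells in the value of Unc5b was not tested.

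Neo1 (neogenin), the receptor shared by netrins and repulsive guidance molecules, had 12.01 and 12.04 in Mutant AECI and 12.15 and 11.86 in WT AECI, against 11.92 and 11.58 in Mutant AECII and 11.96 and 11.76 in WT AECII. It was even over the groups, at a difference of 0.21 (95% interval -0.24 to 0.65). Dcc differed by 0.28 (95% interval -0.21 to 0.76), but only its used spot was bright, at a mean of 8.56, while the other 5 had means of 2.72 to 4.22. Unc5a, Unc5c and Unc5d differed by 0.47, 0.01 and 0.54, and their 95% intervals were as wide as -1.53 to 1.56 for Unc5c.

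Spots of 1 gene were compared within the arrays. Averaged over the genotypes, the difference of AECI minus AECII had the same sign in every spot for 6 of the 6 passing genes with more than 1 spot. These were Efna3, Efna5, Epha7, Ntn3, Ntn5 and Unc5b, the last with a second spot near 0 that had the opposite sign in WT. The same held for 2 of the 16 other genes with more than 1 spot (Epha1 and Ephb6). Passing had already picked genes by the difference of the used spot in these arrays, so the 2 counts are no check on the calls. Spots of 1 gene share the RNA and the array and are not replicates.

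**Figure D4:**
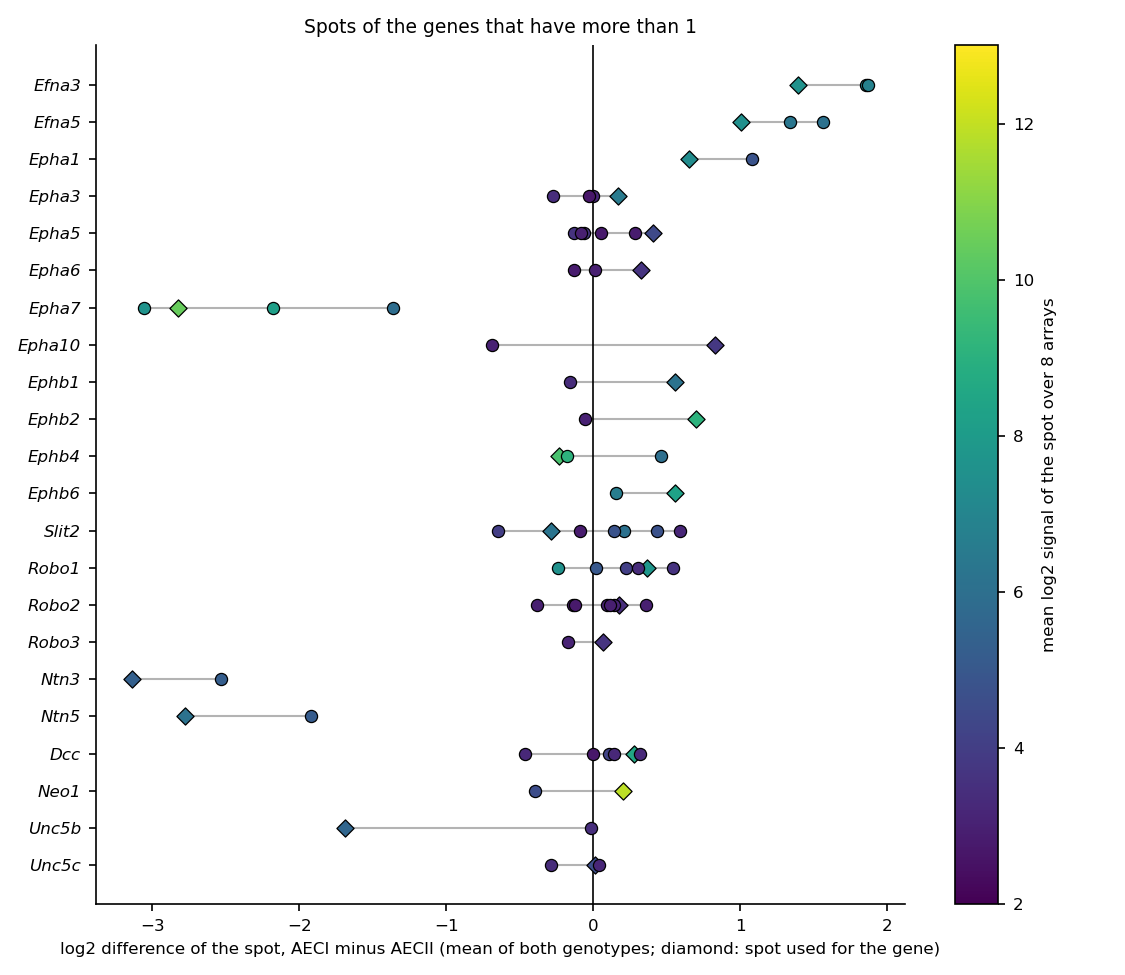
Log2 difference of AECI minus AECII (x axis, mean of both genotypes) for every spot of the 22 genes with more than 1 spot (y axis), coloured by the mean log2 signal of the spot, with a diamond for the spot that stood for the gene. All 4 spots of Epha7, both of Ntn3 and both of Ntn5 lay below -1.3, the 3 spots of Efna3 and of Efna5 lay at or above 1, and most other genes had spots on either side of 0.

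Inhibition of Fgfr2b was then compared with WT in each population. None of the 39 genes passed in AECI, where 0.0163% of all genes did (4 of 24568), nor in AECII, where 0.0122% did (3 of 24568). At an unadjusted p under 0.05, 4 of the 39 were counted in AECI, beside 7.64% of all genes, and 4 in AECII, beside 4.41%. The arrays of the genotypes did not overlap for 15 of the 39 genes in AECI (35.4% of all genes) and for 11 in AECII (35.7%). In the average over both populations, added after the values were seen, 0 of the 39 passed, beside 0.0448% of all genes, and 4 were under an unadjusted p of 0.05, beside 7.6%. With 2 arrays a group, a missed threshold does not show that a gene was unaffected. Genotype went with the signals of Xist, Uty and Eif2s3y in all 8 arrays. No difference between Mutant and WT can therefore be told apart from one of sex. Markers of the cell types differed as well. All 8 AECI markers had higher means in Mutant AECII than in WT AECII, with a median difference of 1.25, and all 8 AECII markers had lower means in Mutant AECI than in WT AECI, with a median difference of -0.93, although 0 of them passed by limma. Etv5, a target of fibroblast growth factor signalling among the AECII markers, had 10.36 and 9.92 in Mutant AECI, against 10.70 and 10.85 in WT AECI. Its signals among type II cells were 12.30 and 12.58 in Mutant AECII, against 12.09 and 12.12 in WT AECII. What part these markers' cells had in the values of the 39 genes was not tested.

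In AECII the smallest p belonged to Efna5, with 6.63 and 6.12 in Mutant AECII, against 7.86 and 7.35 in WT AECII. The difference was -1.23 ± 0.31 (adjusted p = 0.89), and its 3 spots differed by -1.23, -0.80 and -0.80. Efnb3 had 3.24 and 3.48 in Mutant AECII, against 4.85 and 5.40 in WT AECII, a difference of -1.76 ± 0.46 (adjusted p = 0.9). Neither gene overlapped between the genotypes. Unc5d had 4.90 and 5.90 in Mutant AECII, against 3.83 and 2.91 in WT AECII, and Epha6 had 3.31 and 2.91 in Mutant AECII, against 3.79 and 4.00 in WT AECII. Epha6 differed by -0.79 ± 0.28 and Unc5d by 2.03 ± 0.83, both with an adjusted p of 0.998.

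Efna5 and Efnb3 were also lower in both Mutant AECI arrays than in both WT AECI arrays. Efna5 differed there by -0.50 ± 0.31 (adjusted p = 0.752) and Efnb3 by -0.97 ± 0.46 (adjusted p = 0.681). Over both populations the differences were -0.87 ± 0.22 (adjusted p = 0.545) and -1.36 ± 0.32 (adjusted p = 0.493). The 4 Mutant arrays did not overlap the 4 WT arrays for 1 of the 39 genes, Efnb3, beside 2.55% of all genes, and all 4 lay lower, as for 1.32% of all genes. Efnb3 had 1 spot, with signals of 3.24 and 3.48 in Mutant AECII. Its log2 differences therefore depend on the low end of the scale.

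In AECI the smallest p belonged to Ntn4, with 6.44 and 5.25 in Mutant AECI, against 4.45 and 4.52 in WT AECI. It was higher by 1.36 ± 0.49 (adjusted p = 0.601). The next 3 genes were among those that were lower in AECI than in AECII, and all had negative differences. Ntn3 differed by -1.34 ± 0.50 (adjusted p = 0.611), Ntn5 by -0.97 ± 0.37 (adjusted p = 0.625) and Epha7 by -0.85 ± 0.34 (adjusted p = 0.638). The second spots of Ntn3 and Ntn5 gave 0.43 and -0.06 in this comparison, and the 4 spots of Epha7 gave -1.40 to -0.10. Slit3 differed by -0.04 ± 0.80. The X-linked Efnb1 differed by -0.71 ± 0.33 in AECI (adjusted p = 0.672) and by 0.21 ± 0.33 in AECII (adjusted p = 0.998), in arrays whose Xist, Uty and Eif2s3y signals went with genotype.

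The difference between the Mutant effects in AECI and AECII was tested in the same fit, and 0 of the 39 genes passed, beside 0% of all genes. At an unadjusted p under 0.05 there was 1 of the 39, beside 4.71% of all genes. The 4 smallest p-values belonged to Epha6 (1.06 ± 0.39), Epha7 (-1.10 ± 0.48), Epha5 (-0.89 ± 0.40) and Ntn3 (-1.54 ± 0.70), all with an adjusted p of 0.999.

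**Figure D5:**
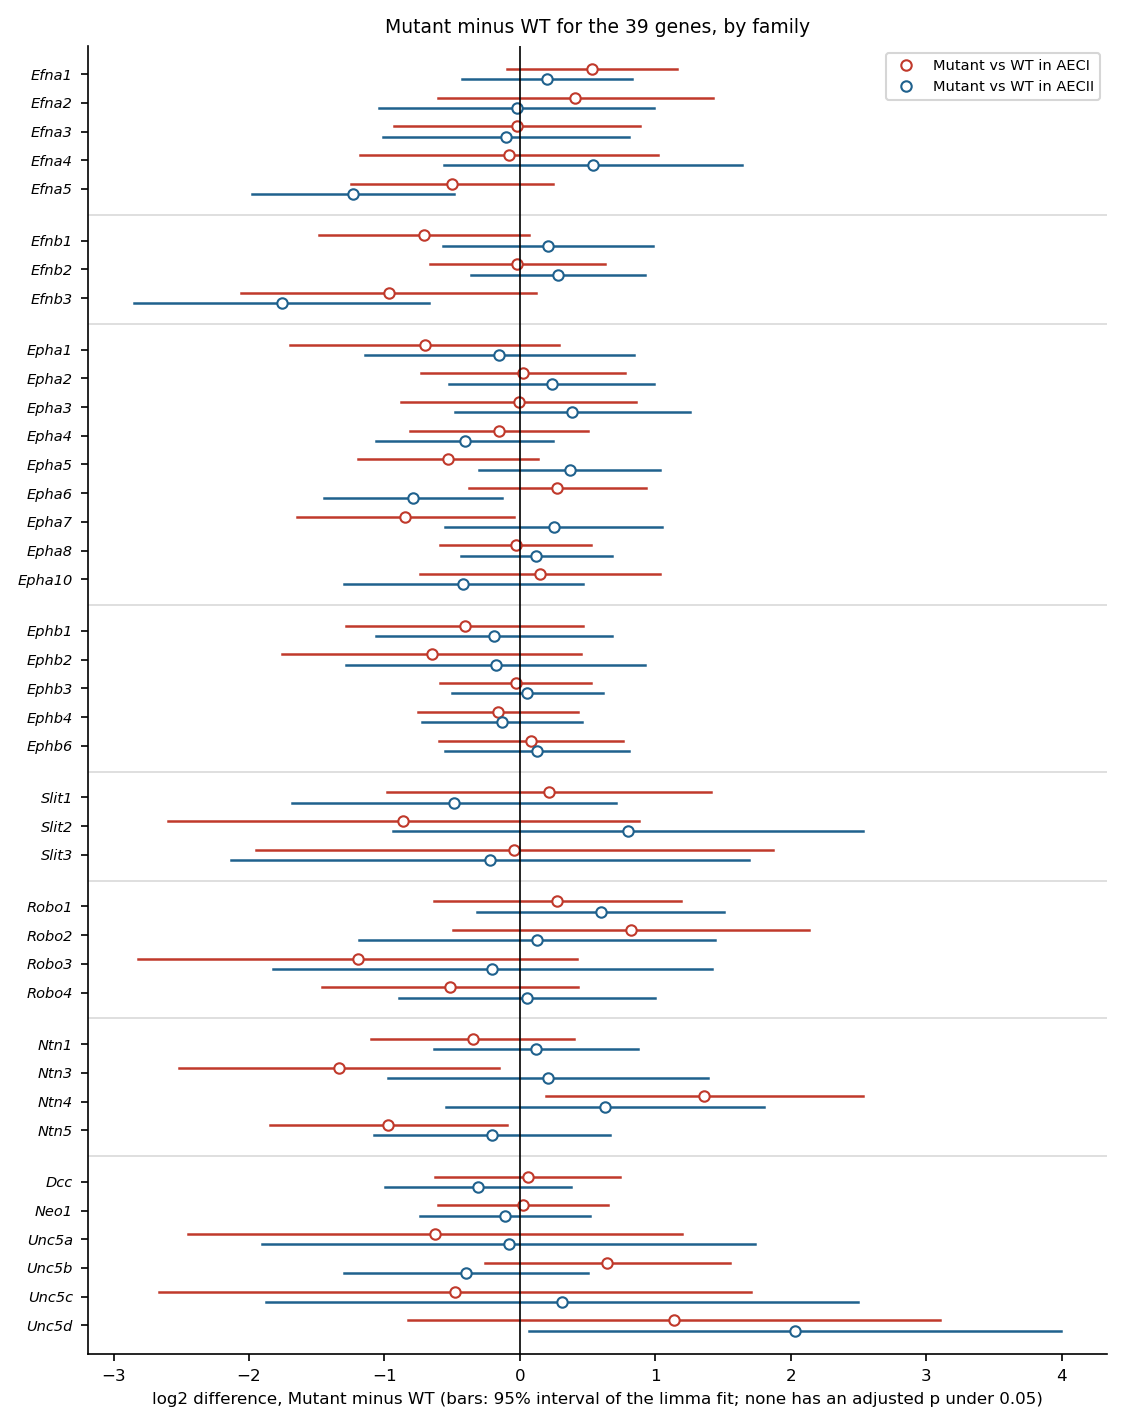
Log2 difference of Mutant minus WT (x axis) for each of the 39 genes (y axis, by family) in AECI and in AECII, with 95% intervals of the limma fit. No gene had an adjusted p under 0.05, and the intervals that left out 0 were those of Epha7, Ntn3, Ntn4 and Ntn5 in AECI and of Efna5, Efnb3, Epha6 and Unc5d in AECII.

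Replicate arrays were not equally close in the 4 groups. The 2 arrays of a group were more than 2-fold apart for 6 of the 39 genes in Mutant AECI (16.1% of all genes) and 11 in WT AECI (18.4%), and for 3 in Mutant AECII (11.5%) and 4 in WT AECII (12.7%). In WT AECI, replicate 1 was the higher one for 7 of the 11, with Unc5c at 6.18 and 3.52, Unc5d at 5.66 and 3.05, Unc5a at 5.02 and 2.60 and Ntn3 at 5.22 and 3.63 in replicates 1 and 2. In the same array the basal cell keratin Krt5 had 12.30, against 4.77 in WT AECI replicate 2, and the club cell gene Cyp2f2 had 12.35, against 8.22 in WT AECI replicate 2. The other markers of these lists did not follow. Trp63, the other basal marker, had 13.84 in WT AECI replicate 1 and 14.11 in replicate 2. The other club markers had 9.54 and 8.89 (Scgb1a1), 9.38 and 9.15 (Scgb3a2) and 7.79 and 7.55 (Scgb3a1) in these 2 arrays. The part of basal or club cells in the values of the 39 genes was not tested. Without WT AECI replicate 1, the difference of Ntn3 in WT was -3.16 (adjusted p = 0.0133), against -1.57 (adjusted p = 0.0591) without WT AECI replicate 2.

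Genes that act with these ligands and receptors were counted from lists of known partners. Of 25 other ligands, coreceptors and sheddases, 2 passed as higher in AECI in WT and 0 as lower, beside 2.87% and 4.14% of all genes, with a median difference of 0.10. Dag1 (dystroglycan), which binds Slits and laminins, had 13.71 and 13.78 in Mutant AECI and 13.32 and 13.51 in WT AECI, against 12.07 and 12.08 in Mutant AECII and 11.97 and 11.72 in WT AECII. It differed by 1.57 ± 0.25 in WT (adjusted p = 0.0129) and passed in Mutant too. Flrt3, a ligand of Unc5 receptors, differed by 1.56 ± 0.35 in WT (adjusted p = 0.0465). In Mutant, Dag1 passed as higher and Sdc4, a heparan sulfate proteoglycan, as lower, beside 2.93% and 4.87% of all genes.

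Of 38 effectors of Eph receptors and ephrins, 1 passed as higher and 1 as lower in WT, beside 2.87% and 4.14% of all genes. The list median was 0.12. Kalrn (kalirin), a guanine nucleotide exchange factor through which EphB receptors act on dendritic spines, had 8.57 and 8.69 in Mutant AECI and 6.78 and 8.56 in WT AECI, against 11.96 and 12.40 in Mutant AECII and 11.76 and 11.81 in WT AECII. It was lower in every AECI array, with a difference of -4.12 ± 0.55 in WT (adjusted p = 0.00764). Anks1, an adaptor of Eph receptors, had 10.22 and 10.69 in Mutant AECI and 10.44 and 10.42 in WT AECI, against 7.73 and 8.11 in Mutant AECII and 7.93 and 7.64 in WT AECII. It was higher in every AECI array, by 2.64 ± 0.29 in WT (adjusted p = 0.00427). In Mutant 1 passed as higher (Anks1) and 3 as lower (Kalrn, Grip1 and Nck1), beside 2.93% and 4.87% of all genes.

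Of 22 measured effectors of Slits and Robos, 0 passed as higher and 1 as lower in WT, beside 2.87% and 4.14% of all genes. The lower one was Enah, an actin regulator of the Ena/VASP family, which differed by -2.05 ± 0.47 (adjusted p = 0.0486). Of 19 measured effectors of netrin receptors, 2 passed as higher and 1 as lower in WT, beside the same shares of all genes. Ablim3, an actin-binding LIM protein, had 10.57 and 10.90 in Mutant AECI and 10.85 and 11.04 in WT AECI, against 6.63 and 4.55 in Mutant AECII and 7.03 and 4.89 in WT AECII, a difference of 4.98 ± 0.84 in WT (adjusted p = 0.0171). The related Ablim1 differed by 2.12 ± 0.30 (adjusted p = 0.00945), and Mtss1, which bends membranes at actin protrusions, by -1.50 ± 0.28 (adjusted p = 0.0252). The same 3 genes passed in Mutant with the same signs, as did Enah, and Cap1, a Robo-binding regulator of actin, passed there as higher. Of all genes, 2.93% passed as higher and 4.87% as lower in Mutant. No gene of the 4 lists passed between Mutant and WT in either population.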

How the data were processed

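Total RNA of the sorted cells was amplified (Ovation PicoSL WTA) and Cy5-labelled (SureTag, Agilent) per the labels, and 8 single-colour arrays were hybridised. The authors deposited log2 signals per spot, quantile-normalized between arrays, so that every array has the same distribution (median 5.01, highest 15.99) and a shift common to most genes would not be seen. The submitters' processing notes name limma. Nothing was stated on background correction, spot filters, slides or scan settings in the sources used. With 8 arrays, their number limits the precision.

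Of 62976 spots, 43941 had 1 gene symbol in the platform annotation, 0 had several and 19035 had none. Symbols were updated by accession through RefSeq (33704 spots matched, 1424 updated), and 57 named spots with a missing value were left out. The spot with the highest mean stood for each of 24568 genes. In limma 3.58.1 (R 4.3.3), lmFit and eBayes fitted 4 group means to the 8 arrays (4 residual and 2.87 prior degrees of freedom, median residual SD 0.39). P-values were two-sided and adjusted by Benjamini-Hochberg over all genes in each comparison. The fit was tested on simulated data. Tables and plots were made in Python 3.11.15 with pandas 2.3.3 and matplotlib 3.10.9.

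Full values are given for members past the threshold in at least 1 comparison, for the 4 smallest p-values in each comparison of Mutant with WT and in the difference, and for up to 4 genes per partner list that passed in WT. The members and all gene lists were chosen with earlier results of these data known. The comparisons averaged over genotypes or over populations were added after the values were seen. Alternatives were median centring, leaving out the dimmer 50% of genes, averaging a gene's spots, a prior with trend and robust options, a replicate block, only the 4 arrays compared, and leaving out each array.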

Additional observations from a re-analysis of the deposited data

Results flagged for a closer look

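For 3 of the 39 genes (7.69%, against 4.4% of all genes) the Mutant arrays lay above the WT arrays in one population and below them in the other, without overlap in either. The difference of the Mutant effects, AECI minus AECII, was -0.89 ± 0.40 for Epha5, 1.06 ± 0.39 for Epha6 and 1.05 ± 0.54 for Unc5b on the log2 scale (SE, limma), with an adjusted p of 0.999 for each. Epha5 had 4.57 and 4.13 in the Mutant AECI arrays, against 5.07 and 4.69 in WT, and 4.38 and 4.40 in the Mutant AECII arrays, against 3.97 and 4.08 in WT. Epha6 had 3.96 and 3.98 in the Mutant AECI arrays, against 3.52 and 3.86 in WT, and 3.31 and 2.91 in the Mutant AECII arrays, against 3.79 and 4.00 in WT. None of the 3 differences passed the threshold, and that of Epha5 was 0.036 with the mean of all its spots. The other spots of Epha6 gave Mutant minus WT differences of -0.82 and 0.01 in AECI, with -0.39 and -0.11 in AECII. The spots of Epha6 had means of 2.85 to 3.66, near the low end of the arrays. The other spot of Unc5b gave 0.13 in AECI and 0.63 in AECII, without the opposite signs of its used spot.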

How the results depend on the processing

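Between AECI and AECII, 8 genes passed in Mutant and 8 in WT. With only the 4 arrays compared, 4 passed in Mutant and 2 in WT, and on leaving out 1 array the counts lay between 2 and 7 in Mutant and between 0 and 6 in WT. With a replicate block, 6 passed in Mutant, 6 in WT and 12 in the average over both genotypes, but replicate numbers did not pair the samples (correlation of deviations between -0.07 and 0.03). The average gave 9 to 12 calls on leaving out 1 array. Of its 12 calls, 7 (Efna1, Efnb1, Epha4, Epha7, Ntn3, Ntn5 and Slit3) held under all alternatives run, 13 for each but Ntn3, which had 12 as it lies among the dimmer genes, as did 2 of the 8 in Mutant (Epha7 and Ntn5, 14 alternatives) and 0 of the 8 in WT. None of the 39 genes passed between Mutant and WT, or in the difference, under any alternative run. No call of the populations changed sign. The difference of the Mutant effects for Epha5 became 0.036 with the mean of all spots, against -0.89 with the used spot. Median centring put the median difference of all genes at 0.19 in Mutant and 0.11 in WT between the populations and at 0.11 between Mutant and WT in AECI, with the same numbers of calls (8, 8 and 0). The fit on only the 4 arrays compared cannot give the difference or the averages. The cause of these changes was not tested. Genes near the low end of the arrays (Epha8, Robo2) and Ephb3 at the top have little room to differ.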
